A study of Mus musculus with 6 samples.

Results

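Among the growth factor and receptor genes measured in sorted dendritic epidermal T cells (DETC), Kit was lower in cells from mice without the aryl hydrocarbon receptor (AHR), while the gene for GM-CSF, Csf2, showed no difference that passed the test. The genes described were given as a list of 8, with Kit and Csf2 chosen as known AHR-dependent genes of DETC and the others as their ligands, receptors and relatives. They are Kit, Kitl, Csf1, Csf2, Csf2ra, Csf2rb, Csf1r and Flt3. Of these 8, 7 were matched by symbol to a gene among the 20300 tested, each by 1 probe set, and Csf2rb was not analysed here. RNA was hybridised to 6 Clariom S Mouse arrays, 3 for Ahr-het and 3 for Ahr-ko, and every array held the pooled RNA of 2 to 3 female or male mice aged 2 weeks. Both groups came from heterozygous breeding of one strain, B6.129-Ahrtm1Bra/J, in which the knockout allele of Ahr is present in every cell. The Ahr-het mice carried this allele once and served as littermate controls, so no array holds cells with an intact pair of Ahr alleles, and the Ahr-ko mice carried it on both chromosomes. Cells from back and belly epidermis were sorted by the γδ TCR and Vγ3 to a purity of 90 to 98%, and before the sort they accounted for 10 to 15% of the live epidermis suspension in Ahr-het and for 2 to 4% in Ahr-ko mice. The labels do not say how the numbers of replicates 1 to 3 were given, and p-values measure the spread between these pools.

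Kit is the receptor tyrosine kinase for stem cell factor, which is encoded by Kitl, and in the skin it is best known from melanocytes and mast cells. GM-CSF is a cytokine that activated T cells release, and it binds a receptor made of its own α chain, encoded by Csf2ra, and a β chain, encoded by Csf2rb, that is shared with the receptors for IL-3 and IL-5. Csf1 encodes M-CSF, and its receptor Csf1r and the related Flt3 belong to the same kinase family as Kit and act in myeloid cells and their precursors. AHR is a transcription factor that, with its partner ARNT, binds DNA at sites with the core GCGTG, and DETC of AHR-deficient mice have been described to carry less Kit.

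Because AHR acts on DNA, the 250 bases before the annotated gene start are shown for the 2 genes that the list was built on, for the ligand Kitl and, as a comparison, for Ahrr, a classic target gene of AHR. The sequences come from RefSeq (GRCm38.p6), run 5′ to 3′ along the gene, and carry each match to GCGTG, searched on both strands, in capitals.
Kit, chr5:75574737-75574986, plus strand: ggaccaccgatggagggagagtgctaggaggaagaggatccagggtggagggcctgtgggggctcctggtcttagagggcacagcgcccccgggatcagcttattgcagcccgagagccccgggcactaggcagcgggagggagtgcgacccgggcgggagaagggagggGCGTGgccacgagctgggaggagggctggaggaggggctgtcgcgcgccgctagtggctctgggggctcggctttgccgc
Kitl, chr10:100015571-100015820, plus strand: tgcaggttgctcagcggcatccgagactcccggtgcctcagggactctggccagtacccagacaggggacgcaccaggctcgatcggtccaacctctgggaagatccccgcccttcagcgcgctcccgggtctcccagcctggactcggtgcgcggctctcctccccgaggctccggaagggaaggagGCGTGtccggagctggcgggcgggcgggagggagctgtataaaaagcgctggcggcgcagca
Csf2, chr11:54249900-54250149, minus strand: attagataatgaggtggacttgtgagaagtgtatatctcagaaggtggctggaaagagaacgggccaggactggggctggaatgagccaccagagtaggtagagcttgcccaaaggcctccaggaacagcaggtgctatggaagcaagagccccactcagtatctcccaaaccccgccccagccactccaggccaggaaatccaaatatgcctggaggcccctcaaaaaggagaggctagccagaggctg
Ahrr, chr13:74292332-74292581, minus strand: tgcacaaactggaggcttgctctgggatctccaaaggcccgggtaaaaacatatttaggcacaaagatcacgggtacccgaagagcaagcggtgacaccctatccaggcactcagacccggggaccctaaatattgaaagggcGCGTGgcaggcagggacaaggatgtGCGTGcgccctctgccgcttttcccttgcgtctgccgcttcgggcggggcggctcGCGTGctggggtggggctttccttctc
Kit and Kitl each held 1 match, starting 80 and 62 bases before the gene start, and Ahrr held 3. No match was found in the windows of Csf2, Csf1, Csf2ra or Flt3, and the windows of Csf1r and Csf2rb were not analysed here. The core is short, and 28.2% of all 32851 such windows held it at least once. A match describes the letters and says nothing of binding, and the window holds no enhancer.

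Levels are log2 values as the authors normalised them by RMA, which hold no call of presence. For a background limit, 1391 genes of smell and pheromone receptors served as genes that lymphocytes should lack. The limit of an array was their 95th percentile there, and it lay between 7.46 and 7.63. Levels of different genes were not compared, since probes differ in brightness. Ahr-ko was compared with Ahr-het by limma, with p-values adjusted by Benjamini and Hochberg's method across the 20300 genes, and 638 of them (3.14%) passed an adjusted p of 0.05. Of these, 320 (1.58%) were higher and 318 (1.57%) lower in Ahr-ko. Of 10 tested markers of DETC and T cells, such as Cd3e and the integrin Itgae, 10 were above the limit on every array, and 1, Ptprc (CD45), was higher in Ahr-ko (log2 fold change 0.47, adjusted p = 0.0437 from limma). At an unadjusted p under 0.05, 3 of the 10 were higher and 1 was lower, and with the replicate block 3 were higher (Ptprc, Cd2 and Klrk1) and 0 lower. Leaving out any 1 array ended the call of Ptprc (adjusted p = 0.0615 to 0.189, limma). Ahr itself had a level of 10.70 +/- 0.0750 in Ahr-het and 10.27 +/- 0.23 in Ahr-ko (SD, n = 3). Its log2 fold change was -0.44 (adjusted p = 0.177, limma). Where its probes lie relative to the altered part of the gene was not analysed, so this level does not check the genotypes. Ahrr, the AHR repressor, was lower on every Ahr-ko array (8.83, 8.82 and 8.99) than on any Ahr-het array (10.57, 10.33 and 10.09), with a log2 fold change of -1.45 (adjusted p = 8.93e-04, limma). It was the only one of 10 AHR pathway genes to pass (0 higher and 4 lower at an unadjusted p under 0.05, 0 and 2 with the replicate block). Of the 10, 4 were below the limit on all arrays (Cyp1a1, Cyp1a2, Cyp1b1 and Nqo1), and Cyp1a2 was among the lower ones. Tiparp, above the limit on every array, had a log2 fold change of -0.90 (adjusted p = 0.270, and 0.00114 with the replicate block, limma). Of 8 fibroblast and endothelium markers, 5 were below the limit on all arrays and 0 passed, with 0 at an unadjusted p under 0.05 and mean levels of 6.80 to 6.93 in Ahr-het and 6.81 to 6.90 in Ahr-ko. Col1a1 was above the limit on every array, at 9.37 to 9.68. Col1a2 was above it on 3 of 3 Ahr-het and 2 of 3 Ahr-ko arrays, and Pecam1 on 1 of 3 and 0 of 3.

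Of the 7 measured growth factor and receptor genes, 1 was lower in Ahr-ko, 0 were higher and 6 did not pass the test, beside 1.57% of all genes tested that were lower and 1.58% that were higher. At an unadjusted p under 0.05 there were 2 lower and 0 higher, beside 6.54% of all genes lower and 6.69% higher at that threshold. With the replicate number as a block 2 were lower and 0 higher, beside 7.58% of all genes called in that fit (3.9% lower and 3.68% higher). The median log2 fold change of the 7 genes was 0.13, beside 0.0038 over all genes. This median is the value of Csf1, which lay near the background limit. Csf1r and Flt3, among the genes with larger values, lay below the limit on every array.

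**Figure D1:**
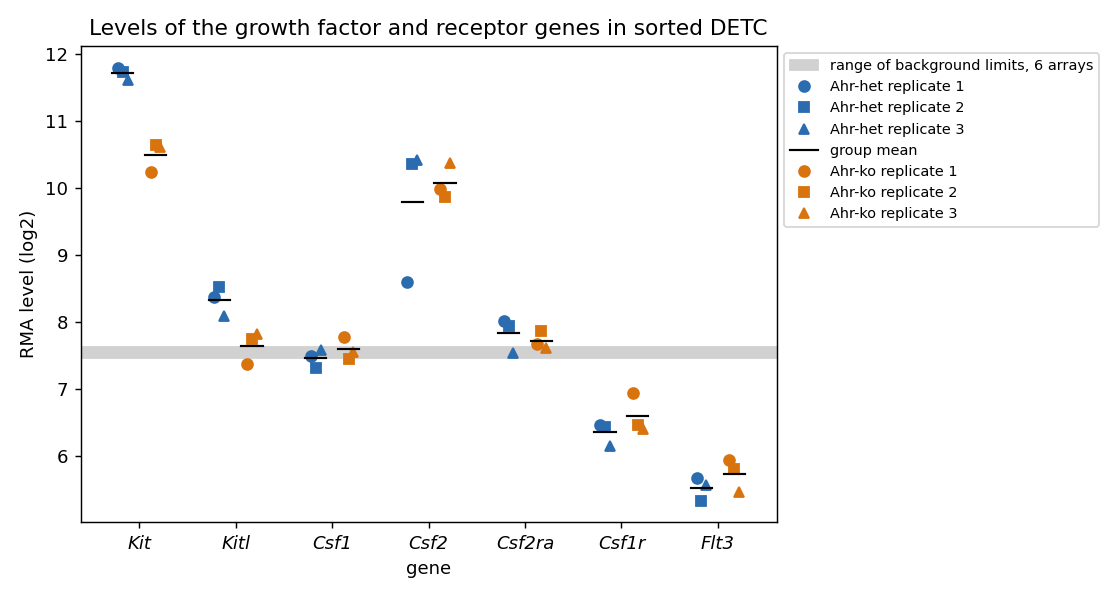
Level (RMA, log2) of the 7 measured genes on each array, with Ahr-het in blue, Ahr-ko in orange, a symbol for each replicate number, a line for each group mean and a grey band for the background limits of the 6 arrays (7.46 to 7.63). Kit is lower on all 3 Ahr-ko arrays, Csf2 overlaps between the groups with Ahr-het replicate 1 far below the other arrays, and Csf1r and Flt3 lie under the band.

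Kit had levels of 11.80, 11.73 and 11.62 on Ahr-het arrays 1 to 3 and of 10.23, 10.65 and 10.61 on Ahr-ko arrays 1 to 3. The groups did not overlap, as for 8.91% of all genes, which were lower on every Ahr-ko array than on any Ahr-het array. The lowest Kit level was that of Ahr-ko replicate 1. The mean was 11.72 +/- 0.092 in Ahr-het and 10.50 +/- 0.23 in Ahr-ko (SD, n = 3), which is a log2 fold change of -1.22 (standard error of the fit, SE, 0.14, with a 95% interval of -1.53 to -0.91, adjusted p = 0.00187 from limma), or a level 2.33-fold lower. Kit stayed above the background limit on 3 of 3 arrays in both groups, by a mean of 4.19 in Ahr-het and 2.91 in Ahr-ko on the log2 scale. Leaving out 1 array at a time gave log2 fold changes of -1.29 to -1.09 and adjusted p-values of 0.00202 to 0.0163 (limma). In a bulk sample, fewer cells that carry a transcript cannot be told apart from less of it in each cell.

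Markers of other cells that use Kit were measured in the same sorts. Of 9 mast cell markers, 7 were below the limit on all 6 arrays, among them the protease genes Cpa3, Mcpt4 and Cma1 and the IgE receptor genes Fcer1a and Ms4a2. The other 2, Tpsb2 and Hdc, were above it in both groups, and the mean level of the list was 6.22 to 6.40 on Ahr-het and 6.29 to 6.36 on Ahr-ko arrays. Of 7 melanocyte markers, 5 were below the limit on all arrays, namely Dct, Pmel, Tyr, Tyrp1 and Slc45a2, while Mlana and Sox10 were above it. The mean level of this list was 6.72 to 6.81 in Ahr-het and 6.71 to 6.87 in Ahr-ko. Of the mast cell and the melanocyte markers, 0 differed between the genotypes by limma, with 0 and 1 at an unadjusted p under 0.05. Of 6 tested markers of NK cells and innate lymphoid cells, some of which also carry Kit, 2 rose in Ahr-ko and 0 fell, with 2 higher and 1 lower both at an unadjusted p under 0.05 and with the replicate block. The lower one was Klrb1c, the gene for a lectin-like NK cell receptor, which was above the limit on every array. Its log2 fold change was -0.83 (adjusted p = 0.308, and 0.00169 with the replicate block, limma). Eomes, a transcription factor of NK cells and memory T cells, was at least 6.54-fold higher, set against the background limit of the Ahr-het arrays (adjusted p = 1.52e-05, limma). Ncr1, which encodes the NK cell receptor NKp46, was below the limit on all Ahr-het arrays and above it on 2 of 3 Ahr-ko arrays, and was at least 1.53-fold higher by the same measure (adjusted p = 0.0382, limma). The call of Ncr1 was lost in 4 of the 6 fits with 1 array removed (adjusted p up to 0.160, limma). The mean level of this list was 6.94 to 7.07 on Ahr-het and 7.40 to 7.92 on Ahr-ko arrays, while the median log2 fold change of its 6 genes was -0.037. The part of these cells in the lower Kit level was not tested.

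Kitl, the gene for the ligand of Kit, had levels of 8.37, 8.52 and 8.09 on Ahr-het arrays and of 7.37, 7.75 and 7.81 on Ahr-ko arrays. Every Ahr-ko array was below every Ahr-het array, and replicate 1 of Ahr-ko was again the lowest. The mean was 8.33 +/- 0.22 in Ahr-het and 7.65 +/- 0.24 in Ahr-ko (SD, n = 3), and the level was above the background limit on 3 of 3 and 2 of 3 arrays. The log2 fold change of -0.68 (SE 0.16, 95% interval -1.05 to -0.32) did not pass the test (adjusted p = 0.0702, limma). It passed with the replicate number as a block (adjusted p = 0.0204, limma) and not in any of the 6 fits leaving out 1 array (adjusted p = 0.0814 to 0.267, limma). Kitl is made by keratinocytes, so the keratinocyte markers are given beside it. All 10 passed the limit throughout Ahr-het, with Krt14 at 9.61 to 10.66, and 9 did so throughout Ahr-ko. Their mean level was 9.30 to 9.54 in Ahr-het and 9.11 to 9.46 in Ahr-ko, with the lowest value on Ahr-ko replicate 1. Of the 10 markers, 1 was lower in Ahr-ko, the desmosome gene Dsp (log2 fold change -1.22, adjusted p = 0.00241, limma). The others did not pass, and the median log2 fold change of the 10 was 0.087. Krt5, Krt15, Krt1, Perp, Sfn and Lgals7 had log2 fold changes of 0.07 to 0.21. Those of Krt14, Krt10 and Trp63 were -0.03, -0.57 and -0.55. With the mean level of these markers as a covariate the log2 fold change of Kitl was -0.59 (adjusted p = 0.0606, limma) and that of Kit was -1.13 (adjusted p = 0.00104, limma). That mean includes Dsp, itself lower in Ahr-ko. A longer list of 26 markers without Dsp was added after seeing the data. With its mean as the covariate the log2 fold change was -0.68 for Kitl and -1.22 for Kit.

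Csf2, the gene for GM-CSF, had levels of 8.59, 10.36 and 10.42 on Ahr-het arrays 1 to 3 and of 9.99, 9.87 and 10.37 on Ahr-ko arrays 1 to 3. It was above the background limit on every array, and 5 arrays lay between 9.87 and 10.42 while Ahr-het replicate 1 lay far below. The groups overlapped, with a mean of 9.79 +/- 1.04 in Ahr-het and 10.08 +/- 0.26 in Ahr-ko (SD, n = 3). The log2 fold change was 0.28 (SE 0.44, adjusted p = 0.868, limma), and its 95% interval of -0.73 to 1.30 includes changes of more than 1 log2 unit upward. The sign rested on 1 array: without Ahr-het replicate 1 the log2 fold change was -0.31 (SE 0.16, adjusted p = 0.440, limma). Leaving out one of the other arrays gave 0.14 to 0.60.

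The receptor chain Csf2ra, which binds GM-CSF, had levels of 8.02, 7.95 and 7.54 in Ahr-het and of 7.67, 7.87 and 7.61 in Ahr-ko DETC. These were close to the background limit, which 2 of 3 Ahr-het and 3 of 3 Ahr-ko arrays passed. The log2 fold change was -0.12 (95% interval -0.47 to 0.23, adjusted p = 0.828, limma). The M-CSF gene Csf1 had levels of 7.49, 7.31 and 7.59 in Ahr-het and of 7.77, 7.45 and 7.55 in Ahr-ko, above the limit on 2 of 3 and 1 of 3 arrays. Its groups overlapped, and its log2 fold change was 0.13 (95% interval -0.17 to 0.42, adjusted p = 0.773, limma).

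Csf1r and Flt3, the kinases related to Kit, were below the background limit on all 6 arrays. The values of Csf1r were 6.47, 6.44 and 6.15 in Ahr-het and 6.93, 6.46 and 6.41 in Ahr-ko, and those of Flt3 were 5.66, 5.33 and 5.57 against 5.94, 5.80 and 5.46. Their differences of 0.25 (95% interval -0.13 to 0.63) and 0.21 (95% interval -0.14 to 0.56) lie within background and are not read as changes (adjusted p = 0.612 and 0.651, limma). Markers of Langerhans cells and macrophages, the skin cells known for Csf1r, stood beside them as follows. Of 8 tested markers, 3 were below the limit on all arrays (Lyz2, Itgam and Spi1), and 3 were above it on every array (H2-Aa, H2-Ab1 and Cx3cr1). The mean level of this list was 7.80 to 8.06 in Ahr-het and 7.79 to 8.11 in Ahr-ko, and 0 of its markers passed the test between the genotypes (1 at an unadjusted p under 0.05, and 1, Cx3cr1, with the replicate block).

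Against a stricter limit, the 99th percentile of those smell and pheromone receptor genes (8.08 to 8.45), Kit and Csf2 stayed above background on 3 of 3 arrays in both groups. Kitl passed it on 2 of 3 Ahr-het and 0 of 3 Ahr-ko arrays, and the other 4 measured genes on none.

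**Figure D2:**
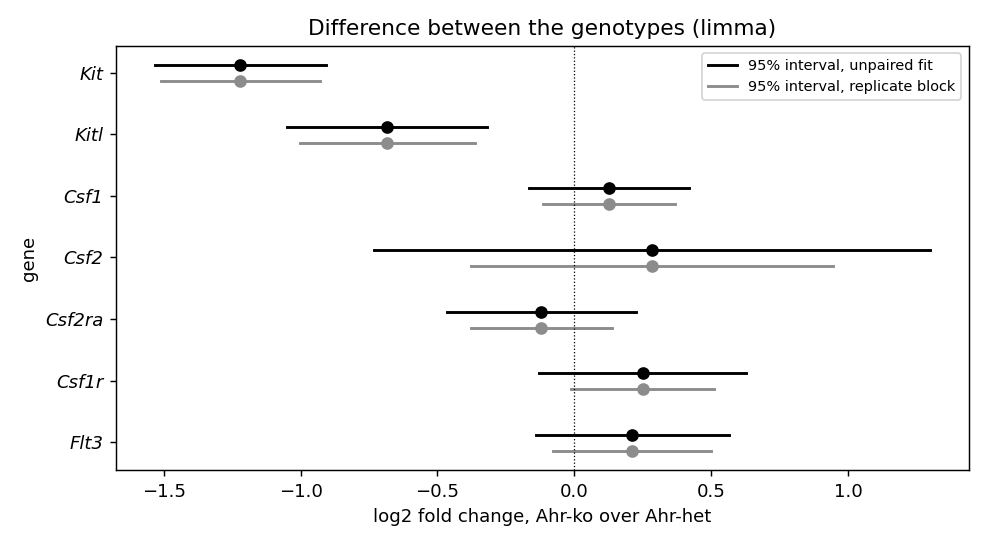
Log2 fold change (Ahr-ko over Ahr-het) of the 7 measured genes from limma, with 95% intervals from the fit without pairing (black) and with the replicate number as a block (grey). The intervals of Kit and Kitl lie below 0, and that of Csf2 is the widest, from -0.73 to 1.30 without pairing.

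The other genes of these pathways were followed by role, from lists chosen for their place in the pathway but with earlier results of these data known. Among 4 tested genes of the family that shares the GM-CSF receptor β chain, 0 passed the test (1 higher and 0 lower at an unadjusted p under 0.05). Il3ra, which encodes the α chain of the IL-3 receptor, had levels of 10.25, 10.43 and 10.44 in Ahr-het and of 11.13, 10.71 and 10.85 in Ahr-ko. Its groups did not overlap, as for the 9.76% of all genes that were higher on every Ahr-ko array. The log2 fold change was 0.52 (SE 0.14, adjusted p = 0.102 from limma, and 0.0483 with the replicate block). Il3, Il5 and Il5ra were below the background limit on every array, with Il5 at 6.54 to 7.02. Csf2rb2, which encodes another β chain of the mouse, was not analysed here.

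Of 11 tested genes of other growth factors and receptors, 0 passed (0 higher and 3 lower at an unadjusted p under 0.05, 0 and 2 with the replicate block). Flt3l, the gene for the ligand of Flt3, was expressed at 11.29, 11.21 and 11.16 in Ahr-het and at 11.74, 11.27 and 11.35 in Ahr-ko (log2 fold change 0.24, adjusted p = 0.564, limma). Pdgfa, which encodes a chain of platelet-derived growth factor, had a log2 fold change of -0.68 (SE 0.17, adjusted p = 0.0919 from limma, and 0.00977 with the replicate block). Il34, the gene for another ligand of Csf1r that keratinocytes make, was named after its values were seen. It had levels of 8.39, 8.57 and 8.48 in Ahr-het and of 8.06, 7.80 and 8.03 in Ahr-ko (log2 fold change -0.52, adjusted p = 0.0555 from limma, and 0.0282 with the replicate block).

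Of 35 genes of Kit signalling, 1 was higher, 2 were lower and 32 did not pass. At an unadjusted p under 0.05, 4 were higher and 5 lower, and with the replicate block 1 and 4. The median log2 fold change was 0.016, beside 0.0038 over all genes. Matk, which encodes a kinase that inhibits Src family kinases and that in human blood cells binds activated Kit, had levels of 10.42, 10.54 and 10.40 in Ahr-het and of 8.75, 8.46 and 8.64 in Ahr-ko. The groups were far apart, with a log2 fold change of -1.84 (SE 0.11, adjusted p = 7.34e-05, limma). Src, a kinase of the family that Matk acts on, fell from 9.28, 9.19 and 9.32 to 8.41, 8.49 and 8.36 (log2 fold change -0.84, SE 0.10, adjusted p = 0.00254, limma). Plcg2, a phospholipase of immune receptor signalling, was above the limit on 1 of 3 Ahr-het and 3 of 3 Ahr-ko arrays (log2 fold change 0.72, adjusted p = 0.0417, limma). Leaving out any 1 array ended the call of Plcg2 (adjusted p = 0.0578 to 0.185, limma). Grb2, Shc1, Pik3r1 and Akt1, which encode adaptors and kinase subunits that carry the signal of Kit onward, did not pass the test, with log2 fold changes of 0.22, 0.22, 0.27 and 0.09. Gab2, Pik3cd and Ptpn11 of the same list had log2 fold changes of -0.38, -0.35 and -0.65 and did not pass either. Ptpn11 passed with the replicate block (adjusted p = 0.0115, limma).

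Downstream of the shared β chain, the genes for the kinase Jak2 and the transcription factors Stat5a and Stat5b did not pass, with log2 fold changes of 0.01, 0.47 and 0.18, though Stat5a passed with the replicate block (adjusted p = 0.0274, limma). Of the 18 genes of this list, 1 was higher and 1 was lower (3 and 1 with the replicate block), with a median of 0.095. Socs2, a feedback inhibitor of cytokine signalling that STAT5 induces, had levels of 8.62 to 9.06 in Ahr-het and of 7.63 to 7.87 in Ahr-ko (log2 fold change -1.15, SE 0.14, adjusted p = 0.00322, limma). Its groups did not overlap, as for the 8.91% of all genes that were lower on every Ahr-ko array. Its level lay above the background limit by a mean of 1.37 in Ahr-het and only 0.16 in Ahr-ko, so the Ahr-ko level is near background. Cish and Pim1, known as targets of STAT5 too, had log2 fold changes of 0.24 and 0.17 and did not pass. Myc, a growth regulator, was higher on every Ahr-ko array, at 11.54 to 11.71 against 8.38, 9.93 and 9.79 in Ahr-het (log2 fold change 2.27, adjusted p = 0.0118, limma). The call of Myc was lost in 2 of the 6 fits with 1 array removed (adjusted p = 0.0520 without Ahr-ko replicate 2 and 0.0709 without Ahr-ko replicate 3, limma).

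Of 13 tested transcription factors known to act at the Kit locus in blood cells or melanocytes, 0 passed the test, 0 at an unadjusted p under 0.05 and 0 with the replicate block. Tal1, Myb and Tfap2a were below the background limit on all arrays, so no change could be read for them. Lyl1 and Mitf were above it on some arrays only, and Gata3 of this list was not analysed here. Ldb1 and Tcf12 had log2 fold changes of -0.23 (adjusted p = 0.518) and 0.19 (adjusted p = 0.491, limma). The median of the 13 genes was 0.0022. Of 18 transcription factors that act on Csf2 in T cells, 1 was higher and 0 were lower (3 and 2 at an unadjusted p under 0.05 and with the replicate block). This was Bhlhe40, which in mouse helper T cells is needed for GM-CSF, with levels of 9.91, 10.92 and 10.72 in Ahr-het and of 11.72, 11.98 and 12.06 in Ahr-ko (log2 fold change 1.41, SE 0.25, adjusted p = 0.0199, limma). This call was lost in 3 of the 6 fits with 1 array removed (adjusted p up to 0.111, limma). With the replicate block, Nfatc1 and Nfkb1 also passed as higher, with log2 fold changes of 0.98 and 0.62 (adjusted p = 5.16e-04 and 0.00558, limma). Jun and Fos passed as lower in that fit, with -0.48 and -0.58 (adjusted p = 0.0296 and 0.0357, limma). None of them passed in the fit without the block. Ahr-het replicate 1, the array with the low Csf2 value, also held the lowest Bhlhe40 and Myc levels.

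**Figure D3:**
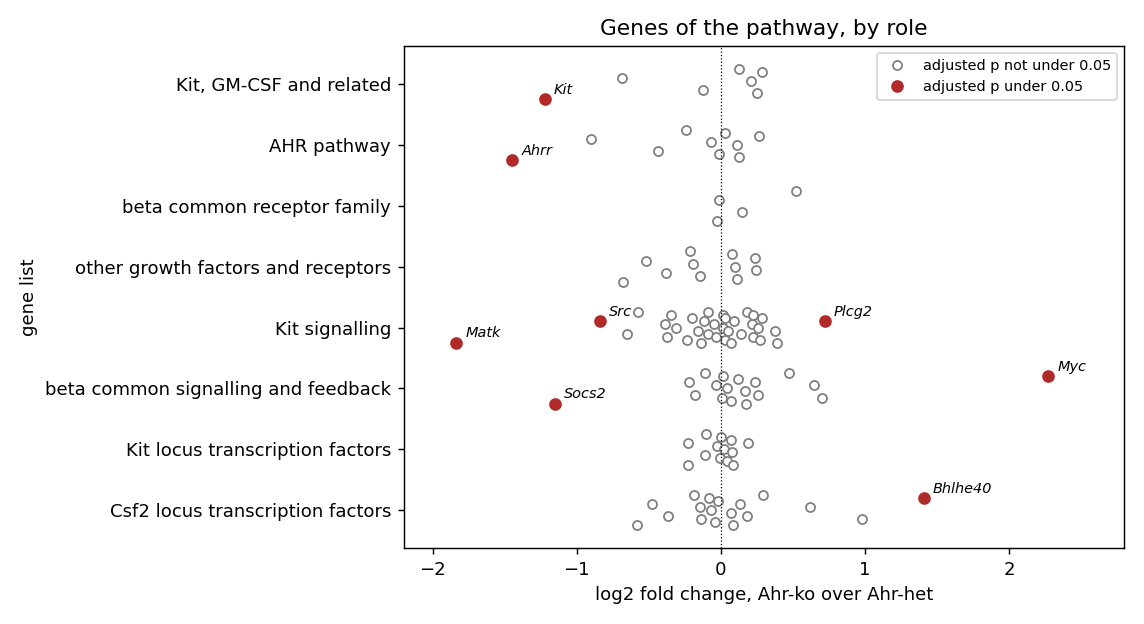
Log2 fold change (Ahr-ko over Ahr-het) of every tested gene of the lists, one row per list and one point per gene, with red points for an adjusted p under 0.05 from limma (the vertical scatter only separates points). Most genes lie near 0, while Matk (-1.84), Ahrr (-1.45), Kit (-1.22), Socs2 (-1.15) and Src (-0.84) were lower and Myc (2.27), Bhlhe40 (1.41) and Plcg2 (0.72) higher.

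The genes whose pattern over the 6 arrays was most like that of Kit or of Csf2 were picked by Pearson correlation among 11734 genes above the background limit on all arrays of a group. These correlations describe 6 arrays that share one normalisation, and for Kit they follow the step between the genotypes. For Kit they were Gm3002 (r = 0.999), Tle4 (0.998), Mtss2 (0.997), Plxna3 (0.994) and Slc6a6 (0.994). Tle4, a transcriptional corepressor, had levels of 12.16, 12.10 and 12.02 in Ahr-het and of 11.09, 11.28 and 11.34 in Ahr-ko, so that Ahr-ko replicate 1 was the lowest array, as for Kit. Plxna3, a semaphorin receptor, Mtss2 and Gm3002 were below the limit on 3 of 3 Ahr-ko arrays, and Slc6a6, the taurine transporter, stayed above it.

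For Csf2 the most alike were Rnf223 (r = 0.988), Phlda1 (0.982), Nfkbia (0.982), 4930451I11Rik (0.982) and Irx6 (0.978). Phlda1, which T cell stimulation induces, had a level of 9.89 on Ahr-het replicate 1 and of 10.83 to 11.24 on the other 5 arrays. Nfkbia, the NF-κB inhibitor that NF-κB itself induces, had 11.89 on that array and 12.37 to 12.73 on the others. All 5 genes, like Csf2, were lowest on that array, and correlations without it were not computed. The 5 genes had log2 fold changes between the genotypes of 0.05 to 0.23.

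**Figure D4:**
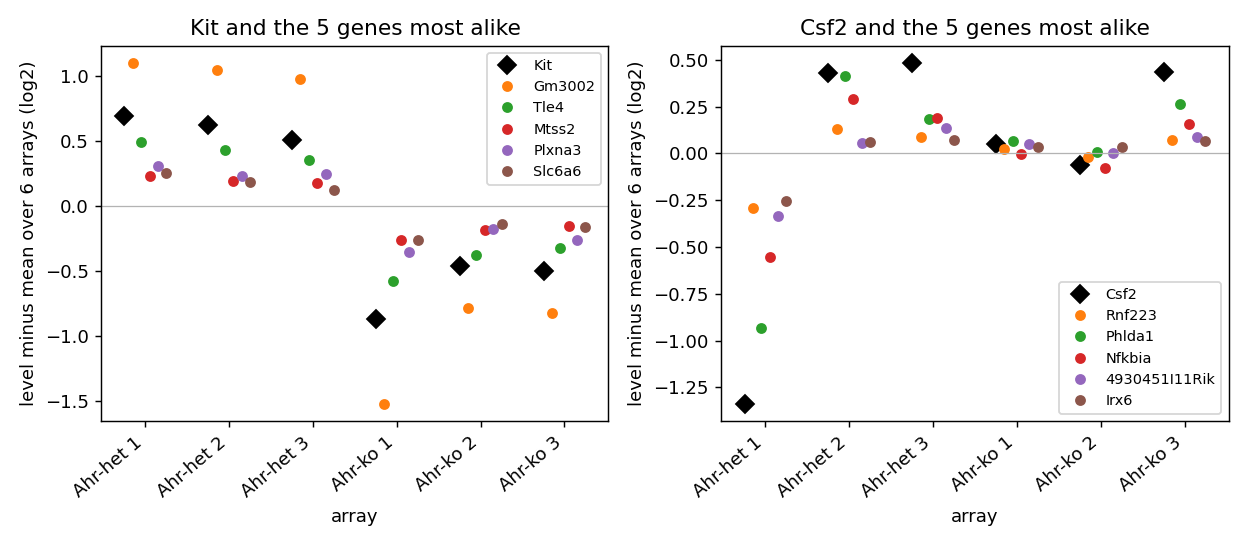
Level on each array minus the mean over the 6 arrays (log2) for Kit (left) and Csf2 (right), as black diamonds, and for the 5 genes most like each, as coloured points. The Kit group steps down between the Ahr-het and the Ahr-ko arrays, and the Csf2 group is lowest on Ahr-het replicate 1.

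**Figure D5:**
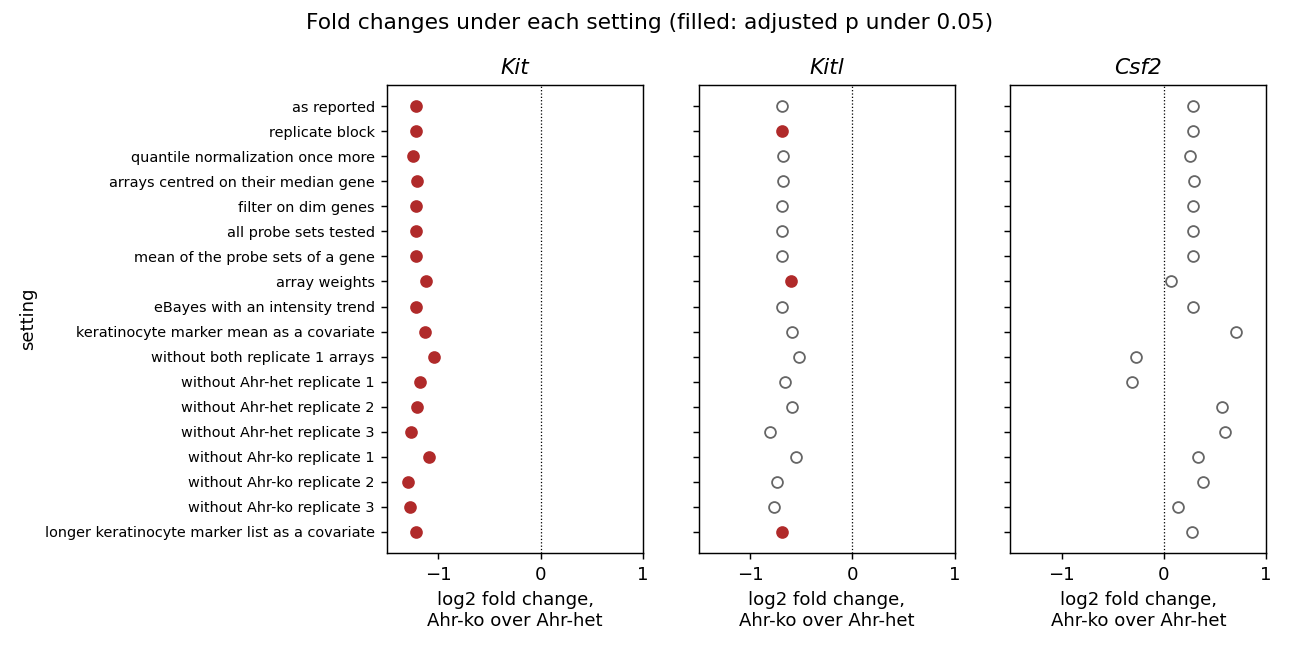
Log2 fold change (Ahr-ko over Ahr-het) of Kit, Kitl and Csf2 as reported and under 17 other settings, with filled points for an adjusted p under 0.05 from limma. Kit passed under every setting shown, Kitl under 3 of the 17, and Csf2 under none, with its sign below 0 in the 2 settings that leave out Ahr-het replicate 1.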

How the data were processed

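Sorted DETC of 6 pools, 3 Ahr-het and 3 Ahr-ko, were measured on Clariom S Mouse arrays from 10 ng of RNA each. The deposited values are log2 levels that the authors obtained with RMA over the arrays. This equalises their distributions, and a change shared by most genes would be removed. For RMA no version, and for the probe sets no genome build, is given in the sources used here. A deposited table of the authors' own comparison holds log2 fold changes, p-values and scores (limma 3.38.3 per the submitters' processing notes). Only its gene ID and symbol columns, which pair the deposited probe sets with genes, were used. With 3 arrays a group, precision is limited by their number.

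Of 29129 probe sets, 20435 carry a gene ID, and the brightest per gene gave 20300 genes, 20199 of which were found in the RefSeq gene table (GRCm38.p6). The genotypes were compared with limma 3.58.1 in R 4.3.3 (lmFit and eBayes, 3 arrays against 3, adjusted p under 0.05). Named are the 7 measured members, Ahr, up to 4 genes past the threshold per list or else the 2 with the highest mean level (a choice of names only), and the 5 genes most alike Kit and Csf2; values printed for other genes were chosen after they were seen. The members and lists were chosen with earlier results of these data known. On simulated arrays for this comparison with 20300 genes, 11 of 67 genes changed by 0.5, 65 of 67 changed by 1 and 66 of 66 changed by 2 (log2) were called, with 9 false calls among 151. The simulated noise was independent between genes and arrays, with 200 changed genes. The real arrays share deviations between the groups, most strongly for replicate number 1, so these rates need not hold for them.

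Equal replicate numbers deviated together (correlations over genes of 0.572, 0.369 and 0.207 for numbers 1, 2 and 3), so a fit with the number as a block was run. What a number stands for is not in the labels, and unequal numbers 2 and 3 also correlated (0.236 and 0.336). Other alternatives were a further quantile normalization, centring arrays on the median, leaving out dim genes, all probe sets, the mean of a gene's probe sets, array weights, an intensity trend, keratinocyte markers as a covariate and leaving out arrays.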

Additional observations from a re-analysis of the deposited data

How the results depend on the processing

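Kit kept its direction and its call under all 17 alternatives (log2 fold change -1.29 to -1.05), and was -1.05 without both replicate 1 arrays. Some alternatives cannot change the fold change of a gene with 1 probe set, only its p-value. They are the replicate block, the filter on dim genes, all probe sets, the mean of probe sets and the intensity trend. Kitl kept its direction under all 17 and passed under 3, with a log2 fold change of -0.68 with the replicate block, -0.60 with array weights (adjusted p = 0.0275, limma) and -0.68 with a longer keratinocyte list of 26 markers as a covariate (adjusted p = 0.0217), which was added after seeing the data. The number of measured members called was 1, against 2 in those 3 fits, and 1 in each fit leaving out 1 array. Csf2 changed sign without both replicate 1 arrays (-0.27, adjusted p = 0.455) and without Ahr-het replicate 1, and leaving out 1 array gave -0.31 to 0.60. The value of Ahr-het replicate 1 carries this change, and why it is low was not tested. Leaving out 1 array gave -0.80 to -0.55 for Kitl. Csf1, Csf2ra, Csf1r and Flt3 kept their direction and did not pass under any alternative that could be run. Csf1, Csf1r and Flt3 gave no value under the filter on dim genes, and Csf2rb gave none at all.

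Of all genes, 638 were called, against 1538 with the replicate block, 1716 with array weights, 1777 with the keratinocyte covariate, 1678 with the longer list and 1147 without both replicate 1 arrays. Leaving out 1 array gave 342 to 644, with the lowest counts without Ahr-ko replicate 3 (342), Ahr-het replicate 2 (355) and Ahr-het replicate 3 (371), and the cause was not tested. For the 18 other genes tested for this, 0 of 304 values changed sign, while 25 lost the call and 7 gained it. Signal near background limits Csf1, Csf2ra and Kitl, and Csf1r and Flt3 lie under it.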
